A study of Mus musculus with 12 samples.

Results

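The comparison described here is that of the corn oil high-fat diet, HFD-CO, with the low-fat control diet in mouse spleen. It takes the 4 mice of each of these diets, 8 of the 12 mice of the series, by the diet named in the sample titles, and it covers all 45281 probes of the array. All mice were male C57Bl/6J, arrived at 6 weeks of age, were acclimatized for 3 weeks, caged in groups, and fed their diet for 8 weeks. The control diet held 5.0 g of fat per 100 g, 2.5 g from corn oil and 2.5 g from coconut oil, with 5.0 g of sucrose and no added cholesterol. HFD-CO held 15 g of fat per 100 g, 5 g from corn oil and 10 g from coconut oil, with 10 g of sucrose and 1.0 g of cholesterol. The diets therefore differed in fat, cholesterol and sucrose at once, and these cannot be told apart. The mice hybridized had been taken out of larger feeding groups on the basis of weight and of triglyceride and cholesterol in plasma, and each array carried the spleen RNA of a single mouse. The remaining 4 mice were fed HFD-ED, with the same fat content, in which part of the corn oil was replaced by triglycerides of the long-chain n-3 fatty acids EPA and DHA. They entered the fit to share its estimate of the spread.

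The spleen filters the blood. Its red pulp holds macrophages that take up aged red cells and recycle their iron and lipids, and its white pulp holds B cells, T cells and the stromal cells that attract them. Sterol-loaded macrophages are known to switch on genes of cholesterol efflux through the nuclear receptor LXR, whereas cells short of sterol switch on cholesterol synthesis and LDL uptake. Fatty acids act in a similar way on PPAR receptors and on genes of fatty acid oxidation.

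Levels are given below on the deposited scale, which is close to log2, so that a difference of 1 is close to a doubling. Of 45281 probes, 34885 carry a single gene symbol, for 19057 genes in all, and each gene is represented by its brightest probe. Values ran from 6.95 to 14.79, and 75.2% of probes had a mean under 7.5, where the scale is compressed and differences come out too small. Arrays correlated across probes with r from 0.979 to 0.995 within a diet and from 0.981 to 0.995 between the diets, and no arrays were identical. The tissue label names spleen, but the wording of 1 protocol field speaks of skeletal muscle. Creatine kinase Ckm, at a mean of 7.04, and the fast myosin Myh4, at 7.05, were near the lower end, and 3 of 20 skeletal muscle markers had a mean of 7.5 or higher. Of 18 spleen markers, 13 did, among them the B-cell receptor subunit Cd79b at 12.72 and the iron exporter Slc40a1 at 13.21. A probe near the lower end does not show that its gene is silent.

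Transcripts of another organ stood out in several spleens, most of all in HFD-CO replicate 4, which carried digestive enzymes of the exocrine pancreas. Cela2a, a pancreatic elastase, was at 7.21, 9.03, 7.51 and 7.06 in control replicates 1 to 4 and at 11.42, 7.15, 7.11 and 14.59 in HFD-CO replicates 1 to 4. Amy2a5, pancreatic amylase, was at 8.22, 12.14, 9.37 and 7.38 in the control mice and at 13.58, 7.58, 7.63 and 14.44 in the HFD-CO mice. HFD-CO replicates 4 and 1 and control replicate 2 were thus the high mice for both enzymes, and the diets overlapped. Clps, the cofactor of pancreatic lipase, reached 13.64 in HFD-CO replicate 4 and 10.03 in replicate 1, and the remaining mice lay between 7.07 and 8.05. Pla2g1b, the secreted phospholipase of pancreatic juice, was at 10.22 in HFD-CO replicate 4, and the other 7 mice lay between 7.01 and 7.40.

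All 29 measured genes of the pancreatic acinar list had a higher mean on HFD-CO, with a median difference of 1.49 log2 units, and 28 of 29 had a higher mean without HFD-CO replicate 4, with a median of 0.29. None of them reached an unadjusted p of 0.05 in either fit. The mean deviation of the list from the 8-mouse average was 3.57 in HFD-CO replicate 4, 0.61 in HFD-CO replicate 1, -0.30 in control replicate 2 and between -0.83 and -0.68 in the other 5 mice. Islet hormone genes such as Ins2 were near the lower end in all mice, and 0 of 14 islet genes had a mean of 7.5 or higher. Leaving out HFD-CO replicate 4 moved 34 genes by more than 0.5 log2 units, all 34 of them downwards, and 24 of the 34 were on the acinar list. Those off the list, some of which may also be pancreatic, were Gm5771, Gm10334, Gm5409, Klk1, Klk1b5, Klk1b26, Cuzd1, Pdia2, Tff2 and Dmbt1. Whether these transcripts came from attached pancreatic tissue was not tested.

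**Figure D1:**
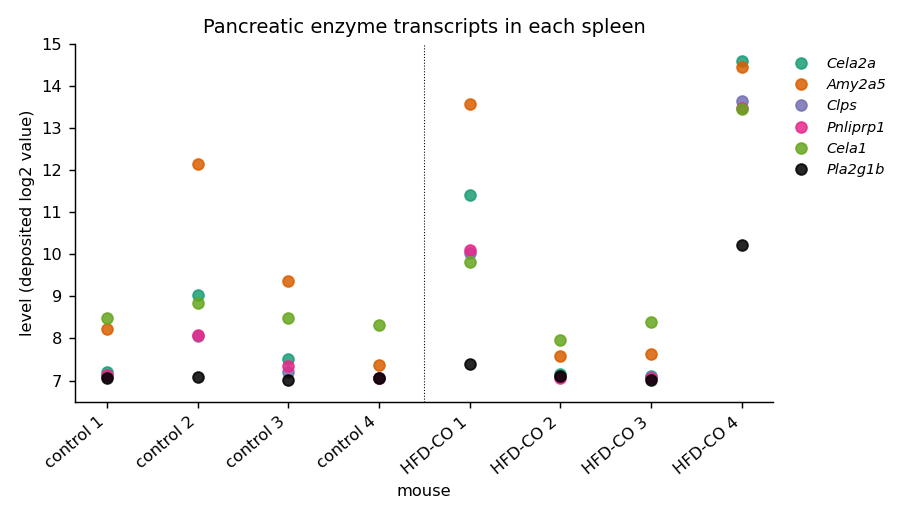
Levels of 6 pancreatic enzyme genes (deposited log2 values, vertical axis) in each of the 4 control and 4 HFD-CO mice (horizontal axis); each point is 1 gene in 1 mouse. HFD-CO replicate 4 is the highest for all 6 genes, from 10.22 for Pla2g1b to 14.59 for Cela2a, and amylase Amy2a5 is also high in HFD-CO replicate 1 at 13.58 and control replicate 2 at 12.14.

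HFD-CO replicate 3 carried transcripts of a liver type, which were seen only after the values had been examined. Mup2, a major urinary protein secreted by the liver, was at 10.37 in this mouse and between 7.07 and 7.36 in the other 7 mice. Ttr, the thyroid hormone carrier transthyretin, was at 7.9997 there and between 7.04 and 7.12 elsewhere, and Apoa2, an HDL apolipoprotein, at 7.97 and between 7.10 and 7.20. Of 19 liver genes written down after Mup2 had been noticed, 14 were highest in HFD-CO replicate 3, and 6 of these by more than 0.5 log2 units. Major urinary protein genes are near copies of each other, so that their probes may share signal, and the probe of Alb, albumin, was near the lower end in every mouse. The probe counts and many of the lists and genes are therefore given also without HFD-CO replicate 4, and some without replicate 3. The others are given with all mice only.

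No probe passed the test between HFD-CO and control once all probes were taken into account. In the limma fit of the 3 diets, 0 of 45281 probes (0%) passed an adjusted p of 0.05 or of 0.001, and the smallest adjusted p was 0.975. The study, which also used limma, did report genes past an adjusted p of 0.001 for this comparison. Why the counts differ was not tested. Without HFD-CO replicate 4 the count was again 0, with a smallest adjusted p of 0.268, and it was 0 with a plain test per probe as well. An unadjusted p under 0.05 was reached by 2072 probes (4.58%), 969 higher and 1103 lower on HFD-CO, and by 2308 without HFD-CO replicate 4. Every probe named below thus has an adjusted p of 0.975 or higher in limma, and its difference is a description of these 8 mice.

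The same fit shows how large a difference the arrays leave room for. Among the 7014 genes with a mean of 7.5 or higher, the median SE of the difference was 0.084 log2 units and the median half-width of its 95% interval was 0.186. The interval lay within 0.5 log2 units of 0, a ratio of 1.41, for 91.3% of these genes and within 1 log2 unit for 98.5%. The median difference over all 19057 genes was -0.0018. Fitted differences beyond 0.5 log2 units numbered 54, 24 of them on the acinar list, and 24 without HFD-CO replicate 4, 7 of them on it. The number of arrays limits this precision.

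**Figure D2:**
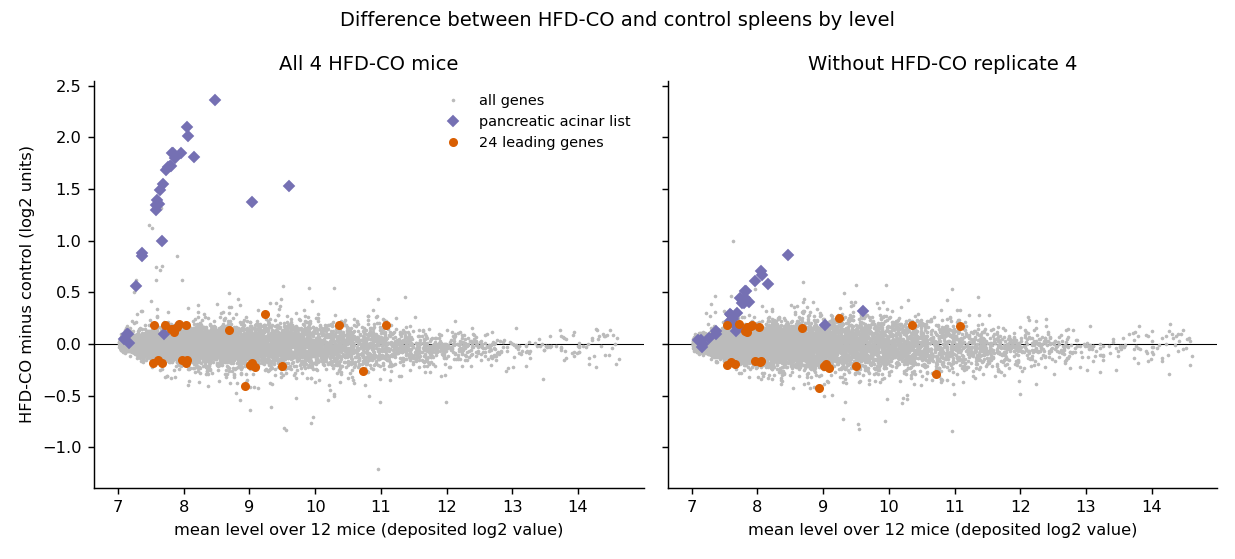
Difference between HFD-CO and control (log2 units, vertical axis) against the mean level over the 12 mice (deposited log2 values, horizontal axis) for 19057 genes, with all 4 HFD-CO mice (left) and without HFD-CO replicate 4 (right); orange points are the 24 leading genes and purple diamonds the 29 pancreatic acinar genes. The acinar genes reach 2.37 on the left and 0.86 on the right. The leading genes keep their sign, as their lack of overlap requires, and none lies beyond 0.43 in size.

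The HFD-CO values lay all above or all below the control values for 632 of 19057 genes (3.32%), 279 higher (1.46%) and 353 lower (1.85%). Among the 7014 genes with a mean of 7.5 or higher the groups did not overlap for 248 (3.54%), 86 higher (1.23%) and 162 lower (2.31%). Without HFD-CO replicate 4, with fewer mice to overlap, they did not overlap for 1344 genes (7.05%), 566 higher (2.97%) and 778 lower (4.08%). From the 248, the 12 genes each way with the smallest unadjusted p are described next. They were picked for their lack of overlap, so that their own overlap and p support nothing. Their differences ranged from 0.12 to 0.41 log2 units in size. All 24 had the same sign without HFD-CO replicate 4, which their lack of overlap makes certain.

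Tns1, tensin 1, which ties actin filaments to integrins at sites of adhesion, had the largest difference among them. Its level was 9.09, 9.24, 9.29 and 8.997 in control replicates 1 to 4 and 8.76, 8.70, 8.72 and 8.81 in HFD-CO replicates 1 to 4. The difference was -0.41 log2 units (SE 0.0742), a ratio of 0.754, with a 95% interval from -0.57 to -0.24, and it was -0.43 without HFD-CO replicate 4. Snx27, a sorting nexin that returns membrane proteins from endosomes to the cell surface, had the smallest unadjusted p, at 9.8e-05. It was at 9.08, 9.12, 9.20 and 9.11 in the control mice and at 8.88, 8.90, 8.94 and 8.95 in the HFD-CO mice, a difference of -0.21 (SE 0.0344), and 3 further probes of Snx27 above 7.5 gave -0.10, -0.03 and -0.04. The control mice ranged from 8.997 to 9.29 for Tns1 and the lowest of them lay above the highest HFD-CO mouse, as the choice of these genes requires.

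On the higher side, Lrrc8c, a subunit of the volume-regulated anion channel, was at 7.63, 7.64, 7.59 and 7.60 in the control mice and at 7.84, 7.87, 7.71 and 7.77 in the HFD-CO mice. The difference was 0.18 log2 units (SE 0.0314), and 0.19 without HFD-CO replicate 4. Pdp2, a phosphatase that switches on pyruvate dehydrogenase and so the entry of glucose carbon into the citric acid cycle, had the largest difference of the higher genes. It was at 9.23, 9.12, 9.06 and 9.22 in the control mice and at 9.33, 9.62, 9.27 and 9.56 in the HFD-CO mice, a difference of 0.29 (SE 0.0747), and 0.25 without HFD-CO replicate 4. Its other probe above 7.5 gave 0.0956. HFD-CO replicates 2 and 4 were the high mice, and replicate 3 lay just above the highest control mouse.

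Some of the 24 genes act in lipid metabolism. Bscl2, seipin, which shapes lipid droplets as they form, was at 10.95, 11.02, 11.001 and 11.13 in the control mice and at 11.27, 11.13, 11.18 and 11.24 in the HFD-CO mice. The difference was 0.18 (SE 0.0479), and the lowest HFD-CO mouse and the highest control mouse both read 11.13. Ttc39b, a gene tied to HDL cholesterol, differed by 0.15, with a mean of 7.91 on HFD-CO and 7.76 on control. Hsd3b7, an enzyme of bile acid synthesis that also inactivates oxysterols, was at 9.73, 9.76, 9.53 and 9.64 in the control mice and at 9.49, 9.45, 9.42 and 9.44 in the HFD-CO mice. Its difference was -0.21 (SE 0.0453), with -0.14 from its other probe above 7.5, and the HFD-CO mice lay close together.

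The remaining leading genes have varied functions. Sart3, which recycles spliceosomal particles, had a mean of 10.82 on control and 10.56 on HFD-CO, a difference of -0.26, and Smarca4, the motor of the SWI/SNF chromatin remodeler, had a difference of -0.15. Atp2a2, the calcium pump of the endoplasmic reticulum, was at 9.16 on control and 8.98 on HFD-CO, and its other 2 probes above 7.5 differed by -0.30 and -0.0097. Reep5, which bends the same membrane, was at 9.25 and 9.02. Wdfy3, an adaptor of selective autophagy, Txlna, a partner of syntaxins, and Cables2, a partner of cyclin-dependent kinases, had differences of -0.18, -0.19 and -0.18. Crtap, which modifies collagen prolines, differed by -0.16 on its brightest probe and by 0.0023 on its other probe above 7.5. Klre1, a lectin-like receptor of natural killer cells, was at 8.17, 8.12, 8.06 and 8.10 in the control mice and at 7.96, 7.93, 7.94 and 8.003 in the HFD-CO mice, a difference of -0.15. Of the remaining higher genes, Ubr1, a ubiquitin ligase, Mak16, a ribosome assembly factor, and Sdhaf3, an assembly factor of succinate dehydrogenase, differed by 0.14, 0.18 and 0.15. Other probes above 7.5 gave 0.15 and 0.11 for Mak16, 0.0945 for Sdhaf3 and 0.0587 for Dusp23. Zfp119a, Tex9, Dusp23, Setbp1 and Tmem131 differed by 0.19, 0.18, 0.12, 0.17 and 0.19.

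**Figure D3:**
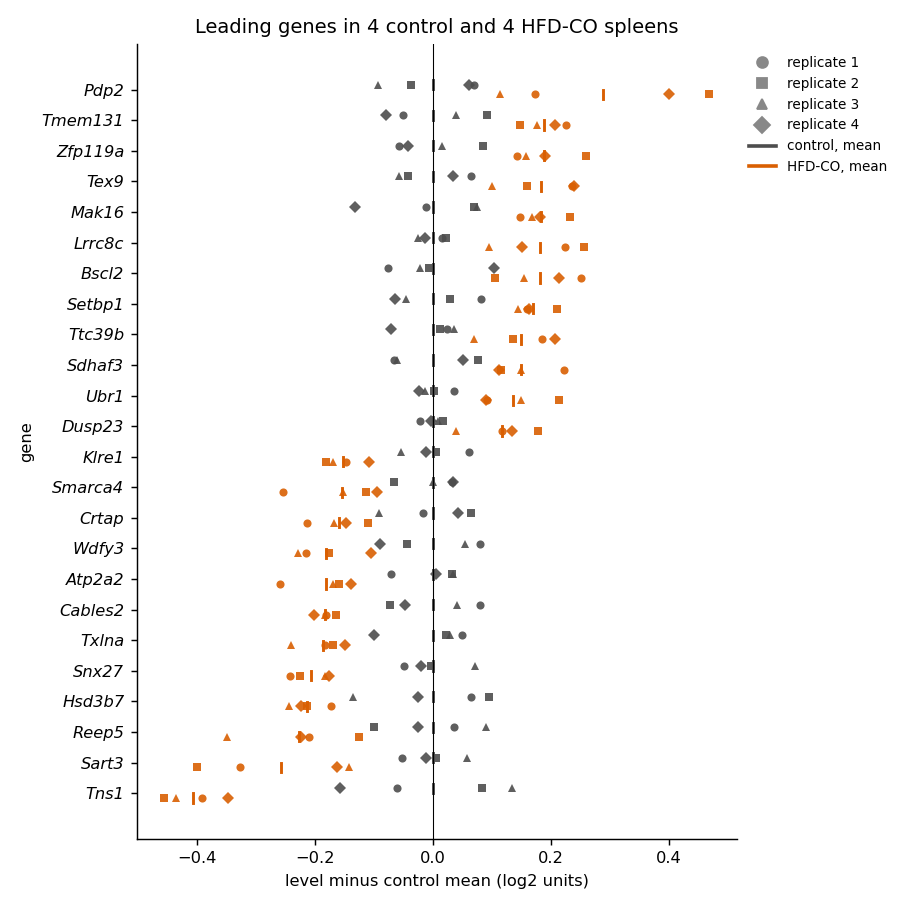
Level minus the control mean (log2 units, horizontal axis) of the 24 leading genes (vertical axis) in each mouse; gray marks are the 4 control and orange marks the 4 HFD-CO mice, marker shape gives the replicate and vertical ticks are means. The diets do not overlap in any of these genes, which is how they were picked, and the steps run from -0.41 for Tns1 to 0.29 for Pdp2.

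The enzymes that make cholesterol lay on both sides of 0. Of 20 listed enzymes of cholesterol synthesis 15 were measured, and 8 lay higher and 7 lower on HFD-CO, with a median difference of 0.0015 against -0.0018 over all genes. None reached an unadjusted p of 0.05, where 2.12% of all genes did on the higher and 2.88% on the lower side. Sqle, squalene epoxidase, an early enzyme of the sterol branch, was at 7.88, 7.89, 7.90 and 8.05 in the control mice and at 7.88, 7.88, 7.76 and 7.85 in the HFD-CO mice. The groups overlapped, and the difference of -0.09 (SE 0.0487) had a 95% interval from -0.20 to 0.02. Lss, which closes the sterol rings, differed by 0.07, and Mvd, an enzyme of the mevalonate pathway, and Sc5d, which acts near its end, by -0.08 and -0.05.

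Genes of sterol sensing and LDL uptake lay mostly on the lower side, 3 of 14 higher and 11 lower with a median of -0.0101, and 2 higher and 12 lower with a median of -0.0391 without HFD-CO replicate 4. None of the 14 reached an unadjusted p of 0.05. Lipa, the lysosomal lipase that splits cholesteryl esters taken up with lipoproteins, was at 10.95, 10.44, 10.55 and 10.56 in the control mice and at 10.29, 10.38, 10.28 and 10.73 in the HFD-CO mice. HFD-CO replicate 4 stood above the other 3 HFD-CO mice, which lay below every control mouse, and the difference was -0.20 (SE 0.16) with it and -0.31 without it. Npc2, which carries cholesterol out of lysosomes, differed by 0.06.

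Among 18 LXR targets and efflux genes, 9 lay higher and 9 lower, with a median of -0.0024, and 10 higher and 8 lower with a median of 0.0172 without HFD-CO replicate 4. A pair of neighbouring lipoprotein genes lay higher with the smallest unadjusted p of the higher members. Apoe, the apolipoprotein that macrophages release with cholesterol, was at 10.65, 10.64, 10.93 and 10.67 in the control mice and at 11.27, 11.30, 11.18 and 10.90 in the HFD-CO mice. HFD-CO replicate 4 lay just under the highest control mouse, and the other 3 HFD-CO mice lay above all control mice. The difference was 0.44 log2 units (SE 0.155), a ratio of 1.36, with a 95% interval from 0.10 to 0.78, an unadjusted limma p of 0.0166 and an exact permutation p of 0.0571. It was 0.53 without HFD-CO replicate 4 and 0.43 without replicate 3, the mouse with liver transcripts (the liver also makes Apoe).

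Apoc1, whose gene lies beside Apoe, was at 8.75, 8.42, 8.31 and 8.05 in the control mice and at 8.71, 9.25, 8.97 and 8.55 in the HFD-CO mice. The groups overlapped, and the difference was 0.49 (SE 0.193) with all mice, 0.60 without HFD-CO replicate 4 and 0.46 without replicate 3. Another probe of Apoc1 above 7.5 gave 0.37. Of the members on the lower side, Abcg1, the exporter of cholesterol to HDL, differed by -0.12 (SE 0.057), and Mertk, the receptor for engulfment of dead cells and an LXR target, by -0.21 (SE 0.0719).

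Fatty acid synthesis and desaturation showed 11 of 24 genes higher and 13 lower, with a median of -0.0044, and none at an unadjusted p of 0.05. Dgat2, which makes triglyceride, was at 7.66, 7.47, 7.54 and 7.59 in the control mice and at 7.52, 7.67, 7.91 and 7.83 in the HFD-CO mice, so that the groups overlapped, and Scd2, a desaturase, differed by 0.10 (SE 0.0603). Of 36 PPAR targets and oxidation genes, 18 lay higher and 18 lower, with a median of 0.0017, and 15 higher and 21 lower with a median of -0.0055 without HFD-CO replicate 4. Acot1, a thioesterase that frees fatty acids from coenzyme A and a known PPARA target, was at 8.44, 8.50, 8.33 and 8.36 in the control mice and at 8.67, 8.52, 8.54 and 8.55 in the HFD-CO mice. Its groups did not overlap, and the difference was 0.16 (SE 0.0524), and 0.17 without HFD-CO replicate 4. Ppard, another receptor of the family, PPAR delta, differed by -0.13 (SE 0.0443), and Etfb, an electron carrier of beta-oxidation, by -0.20, and by -0.29 without HFD-CO replicate 4.

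Genes of lipid uptake and storage were mixed, with 12 of 29 higher and a median of -0.0094. Lpl, lipoprotein lipase, which frees fatty acids from circulating triglyceride, was at 10.42, 9.70, 10.17 and 9.99 in the control mice and at 10.62, 10.62, 10.25 and 10.96 in the HFD-CO mice. Control replicate 1 lay above HFD-CO replicate 3, and otherwise the HFD-CO mice were the higher ones, by 0.54 on average (SE 0.185), a ratio of 1.46, or by 0.43 without HFD-CO replicate 4. Mgll, monoacylglycerol lipase, the last step of triglyceride breakdown, went the other way. It was at 9.12, 8.87, 8.85 and 8.87 in the control mice and at 8.76, 8.35, 8.73 and 8.37 in the HFD-CO mice, without overlap, and the difference was -0.38 (SE 0.137), and -0.32 without HFD-CO replicate 4. The other probe of Mgll above 7.5 gave -0.18. Of the arachidonic acid enzymes, 15 of 34 lay higher, and Ptges3, a cochaperone with prostaglandin E synthase activity, had the smallest unadjusted p, 0.0304, at a difference of -0.19.

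Lpl and several storage genes are also adipocyte genes. Of 20 adipocyte markers 13 lay higher on HFD-CO and 7 lower, with a median of 0.0188, and 7 of the higher ones stood at an unadjusted p under 0.05 and 0 of the lower ones, against 2.12% of all genes on the higher side. Without HFD-CO replicate 4, 16 lay higher, 5 of them at an unadjusted p under 0.05. The 7 lower markers, Plin1, Fabp4, Cidea, Acvr1c, Slc2a4, Ucp1 and Retn, differed by -0.0219 to -0.0006, all on probes with a mean under 7.5. Adipoq, the fat cell hormone adiponectin, was at 8.33, 7.20, 7.63 and 7.64 in the control mice and at 8.10, 8.31, 8.28 and 8.61 in the HFD-CO mice. Control replicate 1 was as high as the HFD-CO mice, and the difference was 0.62 (SE 0.24) with a 95% interval from 0.09 to 1.15, and 0.53 without HFD-CO replicate 4.

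Car3, a carbonic anhydrase abundant in fat, was at 7.46, 7.09, 7.35 and 7.28 in the control mice and at 7.51, 7.67, 7.67 and 7.98 in the HFD-CO mice, without overlap, with a difference of 0.41. Lep, leptin, had a difference of 0.20, Plin4, a coat protein of lipid droplets, of 0.32, Cidec, which fuses droplets, of 0.12, Aoc3 of 0.27 and Sncg of 0.14, and of these probes only that of Aoc3 had a mean above 7.5. The mean deviation of the marker list ran from -0.13 to 0.03 in the control mice and from 0.01 to 0.11 in the HFD-CO mice, with control replicate 1 and HFD-CO replicate 1 in the overlap. In bulk tissue more cells of a type and more RNA per cell cannot be told apart, and the part of attached fat in these values was not tested.

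**Figure D4:**
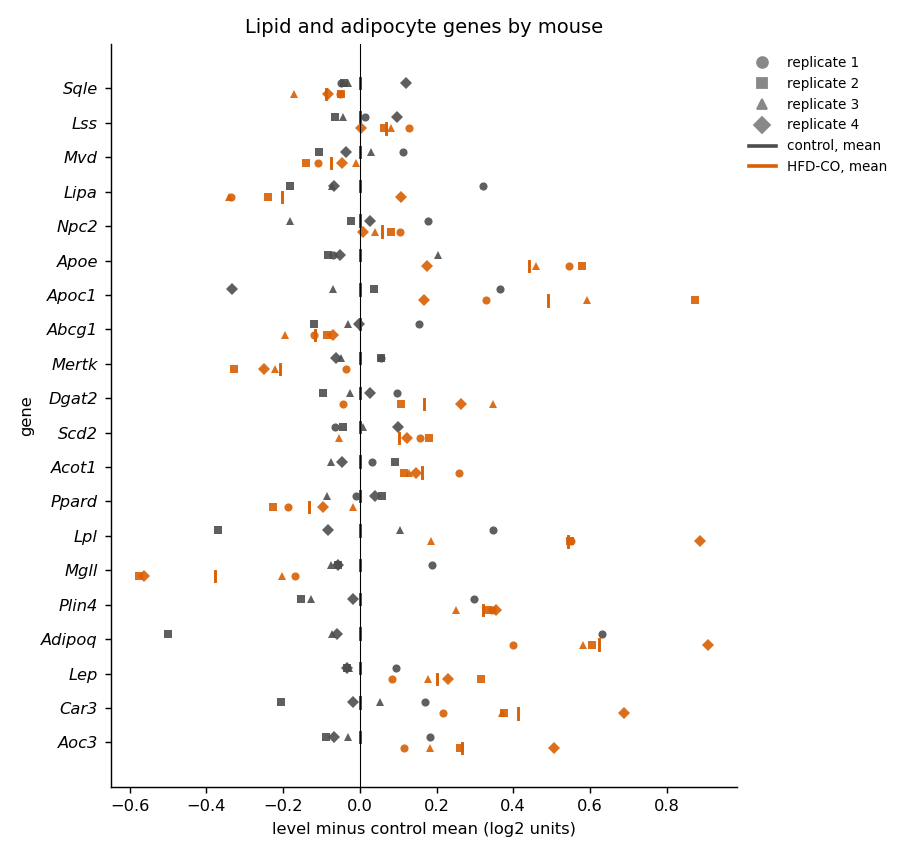
Level minus the control mean (log2 units, horizontal axis) of 20 genes of sterol, fatty acid and fat cell metabolism (vertical axis) in each mouse; gray marks are control and orange marks HFD-CO mice, marker shape gives the replicate and vertical ticks are means. Sterol synthesis genes (Sqle, Lss, Mvd) straddle 0, Apoe and Apoc1 lie higher by 0.44 and 0.49 on average, and in Adipoq control replicate 1 lies among the HFD-CO mice.

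Red pulp macrophage and iron genes leaned to the lower side, with 18 of 26 lower, against 52.2% of all genes, and a median of -0.0498. Without HFD-CO replicate 4, 14 of 26 were lower with a median of -0.0198, and without HFD-CO replicate 2 the median was -0.0139. The mean deviation of the list was -0.13 in HFD-CO replicate 2 and from -0.03 to 0.04 in the other HFD-CO mice. In the control mice it ran from 0.02 to 0.05. Axl, a receptor that binds dying cells and shares ligands with Mertk, was at 12.62, 12.59, 12.46 and 12.41 in the control mice and at 12.36, 12.21, 12.32 and 12.34 in the HFD-CO mice. The groups did not overlap, and the difference was -0.21 (SE 0.0563), and -0.22 without HFD-CO replicate 4. Slc40a1, ferroportin, which exports the iron won from red cells, was at 13.37, 13.48, 13.36 and 13.27 in the control mice and at 13.21, 13.05, 13.04 and 13.34 in the HFD-CO mice, a difference of -0.21. HFD-CO replicate 4 was the one HFD-CO mouse within the control range.

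Of the stromal and marginal zone genes, 13 of 22 lay higher, with a median of 0.0250. Cxcl12, a chemokine that holds B cells and plasma cells in place, was at 12.32, 12.17, 12.12 and 12.21 in the control mice and at 11.998, 11.90, 11.94 and 12.08 in the HFD-CO mice, without overlap and with a difference of -0.23. Its other 2 probes above 7.5 gave 0.15 and 0.09, the opposite sign, so that the direction for the gene is not settled. Ccl19, a chemokine of the T zone, averaged 11.07 on control and 11.30 on HFD-CO and differed by 0.23 (SE 0.167), with overlap. Collagen genes Col3a1 and Col1a2 differed by 0.15 and 0.09 without overlap, on probes with means of 7.42 and 7.53, whereas 15 of 29 matrix genes lay lower and the gelatinase Mmp2 differed by -0.17.

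Of 35 inflammatory cytokines and chemokines, 17 lay higher and 18 lower, with a median of -0.0032, and without HFD-CO replicate 4 13 lay higher and 22 lower, with a median of -0.0103. An unadjusted p of 0.05 was reached by 0 on the higher and 3 on the lower side, against 2.12% and 2.88% of all genes. The groups did not overlap for 2, both lower, against 1.85% of all genes on that side. The mean was 7.5 or higher for 16 of the 35. Ccl2, which draws monocytes, was at 7.14, 7.09, 7.14 and 7.15 in the control mice and at 7.05, 7.09, 7.08 and 7.05 in the HFD-CO mice, all near the lower end. Ccl24 was likewise dim, with a difference of -0.08. Tgfb1, a regulatory cytokine, was at 9.24, 9.03, 8.92 and 8.80 in the control mice and at 8.82, 8.72, 8.74 and 8.77 in the HFD-CO mice, a difference of -0.23 (SE 0.087) in which control replicate 1 was the high mouse. In the NF-kB and Toll-like receptor pathway 17 of 35 genes lay higher, with a median of -0.0046. Nod1, a sensor of bacterial peptidoglycan, was at 10.79, 10.71, 10.68 and 10.60 in the control mice and at 10.42, 10.57, 10.31 and 10.58 in the HFD-CO mice, without overlap, a difference of -0.23. Ikbkg, the regulatory subunit of the IkB kinase, differed by 0.16.

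Some genes were followed by PCR in the study or named there for effects of HFD-ED. None of them passed the test between HFD-CO and control, and Adipoq, Ccl19 and Pla2g1b are described with their lists. For Ccl19, Prkcb and Prkcd the study itself reported no change between HFD-CO and control. Nfkb2, a subunit of NF-kB, differed by -0.04 (95% interval -0.20 to 0.12), Prkcb, a protein kinase C of B cells, by -0.12 (-0.33 to 0.08), and Prkcd by -0.12 (-0.31 to 0.07). Other probes of Prkcb above 7.5 gave -0.03 and -0.05. Tnfrsf11a, the receptor RANK, differed by 0.07 on a dim probe. Ltf, lactoferrin of neutrophil granules, was at 9.05, 8.84, 10.39 and 10.69 in the control mice and at 9.67, 8.26, 9.08 and 8.93 in the HFD-CO mice, where control replicates 3 and 4 were the high mice. Its difference was -0.76 (SE 0.604), with a wide 95% interval from -2.095 to 0.57.

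Neutrophil genes as a list followed the same 2 control mice. Of 28 measured, 27 had a lower mean on HFD-CO, with a median of -0.0982, against 52.2% of all genes on that side, but none reached an unadjusted p of 0.05. The mean deviation was 0.31 and 0.32 in control replicates 3 and 4, -0.01 and -0.17 in control replicates 1 and 2, and from -0.23 to 0.02 in the HFD-CO mice. Camp, the granule peptide cathelicidin, was at 8.93, 8.62, 9.96 and 10.26 in the control mice and at 9.02, 8.30, 8.68 and 8.53 in the HFD-CO mice. Control replicates 1 and 2 thus lay among the HFD-CO mice. Mpo, myeloperoxidase, had a difference of -0.84 (SE 0.61) and S100a9, a calcium-binding alarmin, of -0.56 (SE 0.33), both with intervals that include 0.

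Megakaryocyte and platelet genes lay lower more evenly, in 19 of 20 genes with a median of -0.0700, and in 17 of 20 with a median of -0.1046 without HFD-CO replicate 4. Vwf, von Willebrand factor, made by megakaryocytes and endothelium, was at 8.75, 8.82, 8.72 and 8.59 in the control mice and at 8.15, 8.47, 8.38 and 8.38 in the HFD-CO mice. The groups did not overlap, and the difference was -0.38 (SE 0.103), with a 95% interval from -0.61 to -0.15. Pf4, platelet factor 4, was at 10.45, 10.21, 10.20 and 10.19 in the control mice and at 10.003, 10.07, 10.15 and 9.98 in the HFD-CO mice, with a difference of -0.21 (SE 0.129). The platelet chemokine Ppbp differed by -0.28 (SE 0.148), with overlap. The mean deviation of the list ran from -0.0023 to 0.10 in the control mice and from -0.09 to 0.0018 in the HFD-CO mice, so that control replicate 2 and HFD-CO replicate 4 were the ones to overlap.

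Lymphocyte lists were close to 0, with 11 of 26 B-cell genes and 17 of 30 T-cell genes higher, at medians of -0.0105 and 0.0206. Pou2f2, the transcription factor Oct-2 of B cells, was at 8.85, 8.77, 8.81 and 8.74 in the control mice and at 8.56, 8.22, 8.31 and 8.62 in the HFD-CO mice, a difference of -0.36 (SE 0.0982), and -0.43 without HFD-CO replicate 4. Fcer2a, the low-affinity IgE receptor CD23 of follicular B cells, was at 9.66, 9.67, 9.62 and 9.71 in the control mice and at 10.10, 9.77, 9.82 and 10.20 in the HFD-CO mice, a difference of 0.30 (SE 0.108), and 0.23 without HFD-CO replicate 4. Neither gene overlapped between the diets, and they lay on opposite sides. Other probes of Fcer2a above 7.5 gave 0.21 and 0.05.

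Syk, which signals from the B-cell receptor, had means of 7.59 on control and 7.44 on HFD-CO, a difference of -0.15 without overlap. Foxp3, the factor of regulatory T cells, was at 8.95, 9.05, 9.05 and 9.03 in the control mice and at 9.01, 8.84, 8.89 and 8.76 in the HFD-CO mice, a difference of -0.15, with HFD-CO replicate 1 among the control mice. The other probe of Foxp3 above 7.5 gave -0.0162. Themis, needed for T-cell selection, differed by 0.11 on a dim probe. Of 27 natural killer genes, 16 lay lower, and Klra3, a receptor of the Ly49 family, differed by -0.11. Siglech, a marker of plasmacytoid dendritic cells, was at 9.59, 9.71, 9.11 and 9.15 in the control mice and at 8.82, 8.93, 8.93 and 9.16 in the HFD-CO mice, a difference of -0.43 (SE 0.187) with control replicates 1 and 2 the high mice.

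Interferon response genes leaned to the higher side. Of 28 measured, 23 lay higher on HFD-CO, against 47.8% of all genes, with a median of 0.0643, and 24 lay higher without HFD-CO replicate 4, against 47.6%, with a median of 0.0807. Without HFD-CO replicate 3, which had the highest deviation of the list at 0.11, the median was 0.0104. Eif2ak2, the kinase PKR that halts translation on viral RNA, was at 8.76, 8.80, 8.82 and 8.82 in the control mice and at 8.93, 9.03, 8.93 and 9.26 in the HFD-CO mice, a difference of 0.24 (SE 0.101), and 0.16 without HFD-CO replicate 4. Ifit2, which binds RNA in the cytosol, was at 7.75, 7.90, 7.93 and 7.90 in the control mice and at 8.04, 8.05, 8.06 and 7.97 in the HFD-CO mice, a difference of 0.16 (SE 0.0554). Neither overlapped, and 2 of 28 genes reached an unadjusted p of 0.05, both higher, against 2.12% of all genes on that side. The other probe of Ifit2 above 7.5 gave 0.03. Irf7, the factor that amplifies the response, and Dhx58, an RNA helicase, differed by 0.14 and 0.12, with overlap.

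Interferon reaches such genes through a short response element, here searched as GAAA, 2 bases of any kind and GAAA again, on both strands of promoter windows from RefSeq (GRCm38.p6), which run from 250 bases before to 50 after the start of the gene. The element was found for 12 of the 20 list genes with a window and for 3.99% of all genes with one, and Ifit2 was not among the 12. Of these 12 genes 9 lay higher on HFD-CO, with a median of 0.04, and all 8 without the element in the window lay higher, with a median of 0.15, so that the median was larger without the element than with it. The window of Eif2ak2, on the reverse strand at chr17:78882523-78882822, is shown because this gene had the largest difference of the list, and capitals mark the element.
Eif2ak2: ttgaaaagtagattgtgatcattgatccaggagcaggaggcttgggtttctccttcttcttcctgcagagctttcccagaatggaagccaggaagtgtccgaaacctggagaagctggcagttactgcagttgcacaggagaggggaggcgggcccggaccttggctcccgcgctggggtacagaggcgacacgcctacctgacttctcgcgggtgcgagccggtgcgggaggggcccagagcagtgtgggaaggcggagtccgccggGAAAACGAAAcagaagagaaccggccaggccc

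Heat shock genes held the largest negative difference of all genes, with a wide spread between mice. Of 21 measured, 18 lay lower on HFD-CO, with a median of -0.1259, or 19 lower with a median of -0.0450 without HFD-CO replicate 4 and a median of -0.2684 without HFD-CO replicate 3. Hsph1, the large chaperone HSP105, was at 11.66, 11.50, 12.40 and 11.20 in the control mice and at 9.79, 10.52, 12.22 and 9.37 in the HFD-CO mice. HFD-CO replicate 3 lay among the control mice, and the other 3 HFD-CO mice lay below all control mice. The difference was -1.21 log2 units (SE 0.547), a ratio of 0.432, with a 95% interval from -2.42 to -0.0049, and it was -0.84 without HFD-CO replicate 4 and -1.80 without replicate 3.

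Hspa8, the constitutive HSC70, again had HFD-CO replicate 3 among the control mice, at 13.69, 13.84, 13.69 and 13.54 on control and 13.19, 13.33, 13.80 and 13.08 on HFD-CO, and differed by -0.34. Stip1 and Fkbp4, cochaperones of HSP90, differed by -0.71 (SE 0.368) and -0.39 (SE 0.234), with HFD-CO replicate 3 and control replicate 3 the high mice. Heat shock factor acts through repeats of GAA and TTC, here searched on both strands as GAA, TTC and GAA with 2 bases of any kind between them. This was found in the windows of 4 of 18 list genes, Hsph1, Hspd1, Hspe1 and Chordc1, against 0.662% of all genes. All 4 lay lower, with a median difference of -0.46. Of the other 14, 12 lay lower, and the median of the 14 was -0.0625. The first of the 2 windows listed for Hsph1, on the reverse strand at chr5:149636287-149636586, is shown for the list's largest difference. Its element, in capitals, reads on the opposite strand and lies past the start of the gene.
Hsph1: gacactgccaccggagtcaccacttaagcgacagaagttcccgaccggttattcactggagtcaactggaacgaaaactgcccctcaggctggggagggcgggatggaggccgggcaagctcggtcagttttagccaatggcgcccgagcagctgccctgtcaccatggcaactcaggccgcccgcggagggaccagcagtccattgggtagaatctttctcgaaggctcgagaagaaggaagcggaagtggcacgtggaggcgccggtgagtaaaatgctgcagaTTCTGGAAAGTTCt

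Immediate early genes, which answer to stimulation within minutes, had 12 of 24 members on each side and a median of -0.0001. The Egr genes among them lay higher. Egr3 was at 9.25, 9.55, 9.27 and 9.47 in the control mice and at 9.69, 9.67, 9.70 and 9.84 in the HFD-CO mice, without overlap, a difference of 0.34 (SE 0.102), and 0.31 without HFD-CO replicate 4. Egr1 was at 10.07, 10.09, 10.21 and 10.01 in the control mice and at 10.31, 10.27, 10.23 and 10.29 in the HFD-CO mice, also without overlap, a difference of 0.18 (SE 0.0918). Egr2 differed by 0.20, with HFD-CO replicate 4 at 7.78 among the control mice, and by 0.28 without that mouse. Of 17 glucocorticoid response genes, 14 lay lower, with a median of -0.0499. Klf9, a direct target of the receptor, was at 9.86, 9.77, 9.84 and 9.24 in the control mice and at 9.38, 9.36, 9.42 and 9.26 in the HFD-CO mice, a difference of -0.32 in which control replicate 4 lay lowest of all. Hsd11b1, which regenerates the hormone, differed by 0.19, with 0.11, 0.19 and 0.09 from its other probes above 7.5.

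Erythroid and cell division genes varied more between the mice of a diet than between the diets. The mean deviation of the erythroid list was -0.32, -0.38, 0.21 and 0.60 in control replicates 1 to 4 and 0.0025, -0.47, 0.69 and -0.34 in HFD-CO replicates 1 to 4. The diets overlapped fully, and the median difference was -0.0347 with all mice, 0.0306 without HFD-CO replicate 4 and -0.2624 without replicate 3, so that its sign rested on single mice. Slc25a37, the iron importer of erythroid mitochondria, was at 10.11, 9.83, 10.39 and 11.08 in the control mice and at 10.06, 9.18, 10.96 and 9.80 in the HFD-CO mice. Car1, an erythroid carbonic anhydrase, differed by 0.41 (SE 0.61). Cell division genes had 27 of 36 members higher and a median of 0.0501, and 31 of 36 with a median of 0.0913 without HFD-CO replicate 4. The median was -0.0077 without HFD-CO replicate 3, -0.0110 without control replicate 1, -0.0006 without control replicate 2, 0.0812 without control replicate 3, 0.1125 without control replicate 4 and 0.0331 without HFD-CO replicate 1, so that its sign rested on single mice as well. Plk1, a mitotic kinase, differed by 0.25 (SE 0.271). Plasma cell genes had 12 of 15 members higher with a median of 0.0580, and 14 of 15 with a median of 0.1137 without HFD-CO replicate 4. The median was 0.0053 without HFD-CO replicate 2, 0.0095 without control replicate 1 and 0.1077 without control replicate 4. Jchain, the joining chain of IgM and IgA, differed by 0.18 (SE 0.0944) with HFD-CO replicate 2 the high mouse.

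**Figure D5:**
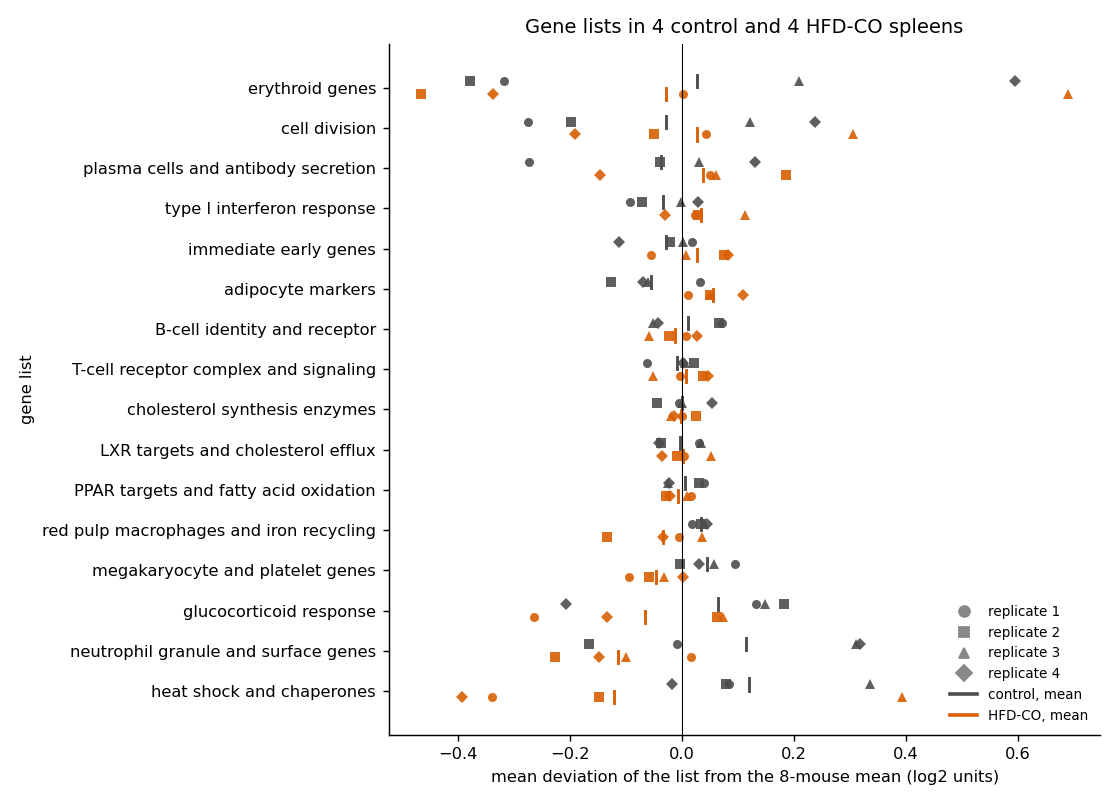
Average departure of 16 gene lists from their mean over the 8 mice (log2 units, horizontal axis; lists on the vertical axis) in each mouse; gray marks are control and orange marks HFD-CO mice, marker shape gives the replicate and vertical ticks are the means of 4 mice. Erythroid genes span -0.47 to 0.69 with the diets mixed, megakaryocyte genes lie lower in most HFD-CO mice, and the heat shock list has HFD-CO replicate 3 at 0.39 and HFD-CO replicate 4 at -0.39.

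The HFD-ED mice, fed as much fat, were compared with the same HFD-CO mice in the same fit. Of the 24 leading genes, which were picked for their difference between HFD-CO and control, 14 had an HFD-ED mean nearer to that of HFD-CO and 10 nearer to that of control, and in 17 it lay between both. None of the 24 passed between HFD-CO and HFD-ED, with a smallest limma adjusted p of 0.319. Ubr1 was at a mean of 8.72 on HFD-ED against 8.73 on HFD-CO and 8.59 on control, and Atp2a2 at 8.99 against 8.98 and 9.16, with differences between the high-fat diets of 0.0037 and -0.009. Zfp119a, at 7.46 on HFD-ED, 7.68 on HFD-CO and 7.49 on control, and Pdp2, at 9.10, 9.45 and 9.16, had their HFD-ED mean near that of control. Vwf, which is not among the 24, was at 9.06 on HFD-ED, 8.34 on HFD-CO and 8.72 on control. The difference between HFD-CO and HFD-ED did not pass for any of these 5 genes, with limma adjusted p-values of 0.986 for Ubr1, 0.967 for Atp2a2, 0.319 for Zfp119a, 0.337 for Pdp2 and 0.236 for Vwf.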

How the data were processed

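The arrays were Illumina MouseWG-6 v2.0 BeadChips. Bead intensities had been read out in GenomeStudio and passed by the authors through lumiExpresso (lumi 2.18.0 in the submitters' processing notes), which stabilizes the variance and then quantile normalizes, and the deposited log2 values were taken as they stood. Variance stabilization compresses differences of dim probes.

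Symbols came from the platform annotation, in which 34885 probes carry 1 symbol, 18 several and 10378 none listed. Each gene was represented by the probe with the highest mean over the 12 arrays. The 3 diets were fitted with limma 3.58.1 in R 4.3.3 (lmFit, then eBayes with its defaults, and a two-sided test), with Benjamini-Hochberg adjustment over 45281 probes, counted at 0.05 and at the study's 0.001, as HFD-CO minus control. The same fit gave HFD-CO minus HFD-ED. Single genes were also compared by an exact two-sided permutation test over mice, which allows no p under 0.0286 for 4 mice against 4. The fit was tested on simulated data.

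The comparison, its 36 gene lists (951 entries, 878 measured) and the tests were chosen with earlier results of these data known. Lists are described by counts and medians, without a test. Genes named were the 12 each way with the smallest p among genes with a mean of 7.5 or higher and no overlap, up to 4 of smallest p per list and further members of the shorter lists, genes named by the study, and the 5 pancreatic and 5 adipocyte markers with the highest level in any mouse. The liver genes and Cd79b were named after their values were seen.

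Alternatives covered a block for the replicate number, 2 diets alone, other variance models, array weights, filters, normalizations, a plain test, all probes of a gene, and leaving out each mouse. Leaving out HFD-CO replicates 3 and 4 together was added after the values were seen. Mice were caged in groups, and cages were not given per mouse in the sources used here.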

Additional observations from a re-analysis of the deposited data

Results flagged for a closer look

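In 14 of 278 groups of 4 mice tested (5.04%), over the named genes and the gene lists, a single mouse lay far from the other 3 of its diet, where chance flags about 1 in 20. Of these 14 cases 12 were control mice. Control replicate 1 was alone for Mgll at 9.12 (the others from 8.85 to 8.87), Lep at 7.25, Pf4 at 10.45 and Ifit2 at 7.75 (the others from 7.90 to 7.93), and the fatty acid synthesis list deviated there by 0.0477. In these 4 genes the HFD-CO mice did not overlap the remaining 3 control mice. For Mgll, Pf4 and Ifit2 this was certain, since the diets did not overlap with all 4 control mice. Control replicate 2 was alone for Clps at 8.05, Syk at 7.69 and Prkcd at 10.85, control replicate 3 for Apoe at 10.93 (the others from 10.64 to 10.67), and control replicate 4 for Sqle at 8.05 and Klf9 at 9.24, with the glucocorticoid list at -0.21 there against 0.13 to 0.18 in the other control mice. On HFD-CO, replicate 4 was alone for Pla2g1b at 10.22 (the others from 7.02 to 7.40) and replicate 2 for Themis at 7.47 (the others from 7.32 to 7.34).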

How the results depend on the processing

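No probe passed an adjusted p of 0.05 or 0.001 under any alternative. The smallest adjusted p was 0.376 or higher under the 10 alternatives with all mice or another model, between 0.124 and 1 when a control or HFD-CO mouse was left out, and 0.0984 without HFD-CO replicates 3 and 4 together. With the replicate number as a block (replicate block) 0 probes passed, with a smallest adjusted p of 0.452 and 2203 probes at an unadjusted p under 0.05 against 2072, and the block changed no call. Deviations from the diet means of equally numbered control and HFD-CO mice correlated with r of -0.084, 0.045, 0.162 and -0.257 across probes. By this measure 1 of 8 mice correlated best with its own number. With 75.2% of probes at a mean under 7.5, these values do not settle whether the numbers pair the mice. The count of probes at an unadjusted p under 0.05 was 463 among probes with a mean of 7.5 or higher and 843 with 1 probe per gene, where fewer probes were tested, 2492 without HFD-CO replicates 3 and 4, and from 1730 to 2337 when a mouse was left out. The 632 genes without overlap became 248 among genes with a mean of 7.5 or higher, from 1069 to 1344 when a mouse was left out and 3055 without HFD-CO replicates 3 and 4, since fewer mice overlap less often. Of the 36 lists, 11 had a median above 0, and from 10 to 17 did when a mouse was left out, 17 of them without control replicate 3. Of 103 genes, 2 changed sign under an alternative, Cxcl12 to 0.0048 with the mean over all its probes and Npc2 to -0.0027 without control replicate 3. List medians moved by more than the spread between mice in 13 of 515 cases, 9 of them with dim probes left out, where the neutrophil median became -0.31, the immediate early median 0.12 and the smooth muscle median -0.10. The platelet median became -0.12 without HFD-CO replicates 3 and 4.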

Other observations

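The liver-type transcripts of HFD-CO replicate 3 came from several gene families. Mup3 and Mup6, further major urinary protein genes, were at 8.75 and 8.39 in that mouse, and Serpina1b, a liver protease inhibitor, at 8.30, where the other 7 mice did not exceed 7.23, 7.17 and 7.68. Apoa1, the main HDL apolipoprotein, was at 7.31 and Ahsg, fetuin A, at 7.39, with the other mice at most at 7.10 and 7.12. Fabp1 and Cyp3a11, also liver genes, were near the lower end in all 8 mice.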
